A study of Mus musculus with 8 samples.

Results

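Lecticans, tenascins and hyaluronan link proteins form the perineuronal and interstitial matrix of the brain. Here 9 genes of these families were followed in whole mouse brain: the lecticans Ncan, Bcan, Vcan and Acan, the tenascins Tnc and Tnr, and the link proteins Hapln1, Hapln2 and Hapln4. They were picked by gene name from a table of 34299 genes, and each name matched 1 row. The list was drawn up with earlier results of these libraries known, so the fold changes and adjusted p-values below describe each gene and are no independent evidence about the set.

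RNA-seq libraries came from 3 groups. There were 3 wild-type (WT) and 3 Cav1 knockout (KO) brains of fetuses at gestation day 15, and 2 Cav1 KO brains at week 70. Cav1 encodes caveolin 1, a membrane protein of caveolae, and the series asks about its part in metabolic programming of the fetal brain. WT brain at week 70 was not analysed here, so the ages are compared within the knockout only, and the week 70 group differs from WT day 15 in both age and genotype. Strain, litter, the knockout allele and the breeding of the mice are not given in the sources used here. Replicates at day 15 are biological per the labels' protocol, which does not say whether they share a litter.

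Lecticans are chondroitin sulphate proteoglycans that bind hyaluronan with their N-terminal end and tenascins with their C-terminal end. Link proteins clamp the lectican to the hyaluronan chain, and tenascin R joins lecticans to each other. In the growing brain a loose matrix of neurocan, versican and tenascin C surrounds migrating and outgrowing cells, and the mature brain holds a denser matrix with brevican, aggrecan, tenascin R and link proteins, including the perineuronal nets around some neurons.

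Each lectican gene lies beside a link protein gene. In GENCODE release M 21 on GRCm38, Ncan (chr8:70093085-70120873, minus strand) and Hapln4 (chr8:70083457-70090862, plus strand) point towards each other across 2222 bases. Bcan (chr3:87987531-88000230) and Hapln2 (chr3:88021750-88027583) lie on the minus strand, 21519 bases apart. Vcan (chr13:89655312-89742509, minus strand) and Hapln1 (chr13:89539796-89611652, plus strand) converge across 43659 bases, and Acan (chr7:79053483-79115099, plus strand) converges with Hapln3 (chr7:79115102-79131018, minus strand) across 2 bases. No annotated gene lies between the members of any of the 4 pairs. The tenascin genes stand alone: Tnc is at chr4:63959785-64047015 on the minus strand and Tnr at chr1:159523769-159931729 on the plus strand. All 9 encode proteins, and the counts are per whole gene, so that splice forms such as those of versican cannot be told apart.

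Bases upstream of the start are shown for 4 genes whose levels moved in opposite directions with age: Vcan and Tnc, which were lower at week 70, and Bcan and Hapln2, which were higher. The RefSeq promoter table (GRCm38) matched 8 of the 9 genes. Sequences run 5′ to 3′ on the strand of the gene and lie upstream of both the RefSeq and the GENCODE start, which leaves 178 bases at Hapln2 and 250 at the other genes. Capitals mark each CG dinucleotide, the site of DNA methylation, which was not measured.
Vcan (chr13:89742513-89742762, minus strand): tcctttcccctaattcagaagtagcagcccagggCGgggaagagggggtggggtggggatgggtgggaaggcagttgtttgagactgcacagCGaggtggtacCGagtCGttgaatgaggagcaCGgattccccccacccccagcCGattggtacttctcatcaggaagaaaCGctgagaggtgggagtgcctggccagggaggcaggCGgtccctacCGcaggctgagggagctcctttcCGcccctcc
Tnc (chr4:64047016-64047265, minus strand): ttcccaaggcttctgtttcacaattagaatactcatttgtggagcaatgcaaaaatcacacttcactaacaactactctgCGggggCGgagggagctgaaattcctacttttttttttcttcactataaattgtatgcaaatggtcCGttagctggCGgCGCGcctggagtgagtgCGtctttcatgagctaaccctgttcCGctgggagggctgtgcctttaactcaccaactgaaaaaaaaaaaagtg
Bcan (chr3:88000357-88000606, minus strand): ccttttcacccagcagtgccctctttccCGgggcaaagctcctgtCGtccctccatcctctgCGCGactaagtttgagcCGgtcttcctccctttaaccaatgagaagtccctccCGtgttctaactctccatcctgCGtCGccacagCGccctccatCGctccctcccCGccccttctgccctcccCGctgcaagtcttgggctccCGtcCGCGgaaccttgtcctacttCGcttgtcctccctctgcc
Hapln2 (chr3:88027584-88027761, minus strand): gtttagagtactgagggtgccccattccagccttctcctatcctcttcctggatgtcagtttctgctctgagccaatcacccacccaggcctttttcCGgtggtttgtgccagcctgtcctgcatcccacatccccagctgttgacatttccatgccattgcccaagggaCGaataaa
In the 250 bases upstream of the RefSeq start, CG occurred 16 times at Bcan, 10 times at Vcan, 8 times at Tnc and 2 times at Hapln2. Across the 32851 promoters of the table the median was 6. The letters TATAAA, searched on both strands, were found in this window at Tnc and not at Vcan, Bcan or Hapln2, and 12.4% of all promoters in the table held them. Among these 4, the number of CG did not follow the direction with age, since Bcan had the most and Hapln2 the fewest.

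Total counts ran from 19414747 to 20833397 in WT day 15, from 14110031 to 15245283 in KO day 15 and were 20203233 and 18924304 at week 70, so that depth separated the fetal genotypes completely. Cav1 had 218 to 367 counts in WT, 0 to 3 in KO day 15 and 1 to 5 at week 70. Xist had 54531 to 93272 counts in the fetal libraries and 7969 in week 70 replicate 1, where 4 Y-linked genes together had at most 4. Week 70 replicate 2 had 4 Xist and 2219 Y-linked counts, so the week 70 libraries differ in sex, while all fetal libraries read as female. WT day 15 replicate 1 stood apart: 10 cartilage markers summed to 774 CPM there (CPM are counts relative to the library total, scaled between libraries by the TMM method), against 187 and 186 in the other WT libraries and 105 to 126 in KO day 15. In the same library 8 markers of meninges and fibroblasts summed to 4515 CPM, against 312 and 527 in WT and 65.6 to 135 in KO day 15. All 6 neuron markers were read in every library. Together they summed to 3736.5 to 4180 CPM in WT day 15, 2878 to 2945 in KO day 15 and 7777 and 8021 at week 70. These sums do not show whether other tissue was included.

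The plot of levels gives the 9 genes in every library. In bulk tissue, fewer cells of a type and less RNA per cell cannot be told apart.

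**Figure D1:**
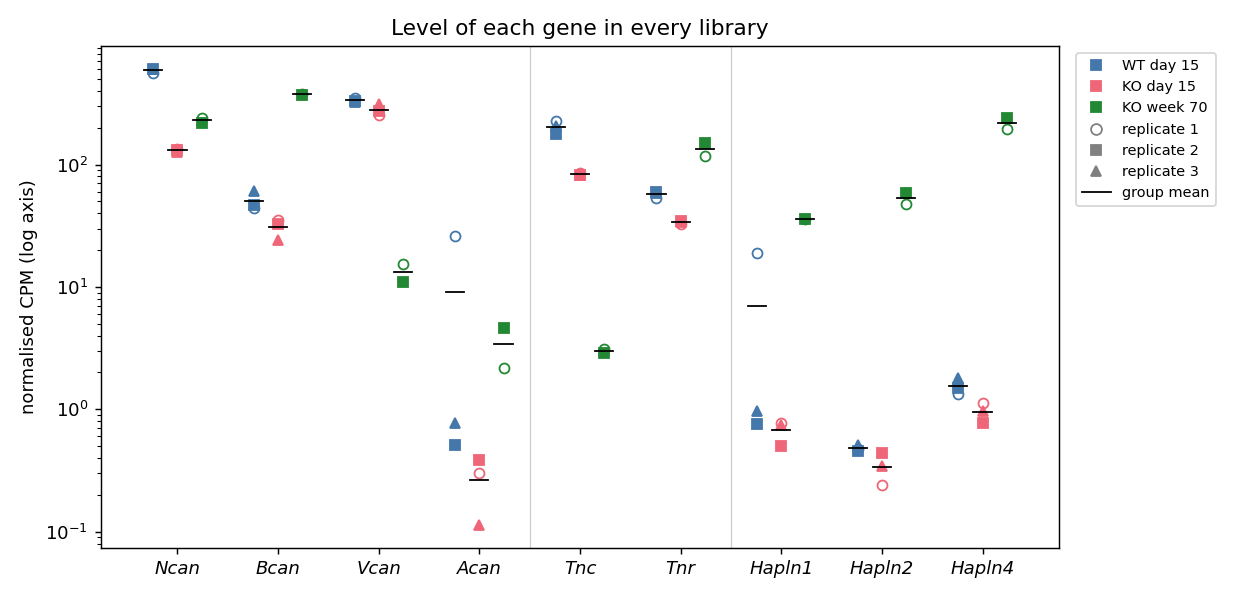
Normalised CPM (log axis) of the 9 genes in each library, coloured by group, with the replicate shown by the symbol and the group mean by a bar. Acan and Hapln1 are spread in WT day 15 because replicate 1 lies far above replicates 2 and 3, while Vcan and Tnc fall and Bcan, Tnr and the link proteins rise from KO day 15 to KO week 70.

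The first question was how the matrix genes of the fetal brain differed without Cav1. Of the 9 genes, 7 passed the filter on low counts at day 15, and 5 of these were lower in KO with an edgeR adjusted p under 0.05: Ncan, Bcan, Tnc, Tnr and Hapln1. The other 2, Vcan and Hapln4, were below WT as well but were not called. Over all 19147 genes tested 62.6% were called, 30.1% higher and 32.5% lower, and the size of the difference is given for each gene below.

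Neurocan (Ncan), the most abundant lectican of the fetal brain per length of transcript in WT, showed the clearest difference. Its levels were 562, 606 and 606 normalised CPM in the WT day 15 libraries and 134, 130.3 and 126 in KO day 15. All KO libraries lay far below all WT libraries. WT brains averaged 591 ± 25.3 CPM and KO brains 130.3 ± 4.18 (SD, n = 3 each). On the log2 scale KO minus WT was -2.09 (SE 0.0631, edgeR adjusted p 1.39e-08), and 1.18% of all tested genes had a lower value.

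Tnc, a large glycoprotein of the matrix around radial glia and their progeny, followed. It was at 225, 177 and 208 CPM in WT and at 85.7, 81.5 and 82.5 CPM in KO, with no overlap. The log2 fold change was -1.20 (SE 0.0807, edgeR adjusted p 5.07e-07). Tnr, which in the mature brain crosslinks lecticans in nets, was already measurable in the fetus at 53.0, 59.7 and 58.9 CPM in WT and 32.5, 34.85 and 33.7 in KO. No KO library reached a WT library, and the difference was -0.67 in log2 (SE 0.0727, edgeR adjusted p 1.63e-05).

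Brevican (Bcan), a lectican made by glia, was at 44.5, 46.7 and 60.2 CPM in WT and at 35.4, 32.9 and 24.4 in KO. The groups did not overlap, but the nearest libraries of both groups lay closer together than the highest and lowest WT libraries. The log2 fold change was -0.62 (SE 0.142, edgeR adjusted p 0.00309). Versican (Vcan), a lectican of the loose embryonic matrix, was at 351, 333 and 326 CPM in WT and 253, 274 and 313 in KO. The log2 difference of -0.18 (SE 0.0824) did not pass in edgeR (adjusted p 0.0843), although the libraries did not overlap, as was the case for 68.5% of all genes tested.

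The fold changes between the fetal genotypes moved with the length and GC content of transcripts, and with an offset for both properties edgeR called 9734 genes in place of 11993. With the offset the log2 fold change was -1.17 for Ncan, -0.41 for Tnc and -0.21 for Tnr, which edgeR still called with adjusted p of 4.1e-07, 0.000554 and 0.0218. Bcan lost its call and its sign, at 0.13 (edgeR adjusted p 0.353), and Vcan was at -0.031. GC content of the longest transcript was 60.7% for Bcan, 55.1% for Ncan, 52.5% for Tnc, 47.7% for Tnr and 43.7% for Vcan.

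Link proteins were scarce in the fetal brain. Hapln4, the link protein known from the mature hindbrain and its nets, was read 28, 29 and 35 times per WT library and 19, 14 and 17 times per KO library. The log2 difference was -0.59 (SE 0.278, edgeR adjusted p 0.0863), and 0.057 with the length and GC offset. Hapln2, a link protein of the nodes of Ranvier on myelinated axons, was read 10, 9 and 10 times in WT against 4, 8 and 6 times in KO, and was not tested because it did not pass the filter.

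Hapln1 and Acan, which build cartilage as well as perineuronal nets, depended on 1 library. Counts of Hapln1 were 401, 15 and 19 for WT against 13, 9 and 13 for KO. Counts of Acan were 547, 10 and 15 for WT against 5, 7 and 2 for KO. Apart from WT replicate 1, every fetal library was low for both genes. Hapln1 was called at a log2 fold change of -3.27 (SE 1.11, edgeR adjusted p 0.0254). Without WT replicate 1 it was -0.31 (edgeR adjusted p 0.536). Dropping a single KO library left the log2 difference between -3.39 and -3.11, with edgeR adjusted p of 0.0648 to 0.0883. Acan did not pass the filter on low counts. With no filter its log2 fold change was -5.06 (edgeR adjusted p 0.00102), a value that rests on WT replicate 1.

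WT replicate 1 is also the library with the cartilage markers. Col2a1, the main collagen of cartilage, had 8521 counts in it against 1941 and 1706 in the other WT libraries. Matn1, a cartilage matrilin, had 626 counts against 1 and 0, and Tnn, a tenascin outside the 9 genes, had 136 against 2 and 2. In KO day 15 Matn1 was at 0 in all 3 libraries. The part of cartilage in the values of Acan and Hapln1 was not tested.

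Of the markers of cells that make these matrix genes, all 5 of oligodendrocyte precursors, 5 of 6 of radial glia and 5 of 8 of astrocytes were called lower in KO day 15, with 1 radial glia and 1 astrocyte marker called higher. Summed levels were 1290 to 1364 CPM in WT and 1103 to 1192 in KO for radial glia. That sum hides opposite changes: Fabp7, a lipid-binding protein, averaged 287 CPM in WT and 775 in KO, while the filament genes Nes and Vim averaged 299.9 and 493 CPM in WT and 53.4 and 174 in KO. For astrocyte markers they were 522 to 609 and 246 to 257 CPM, and for precursor markers 88.7 to 120 and 35.8 to 48.2. Neuron markers, 4 of 6 called lower and 2 higher, summed to 3736.5 to 4180 CPM in WT and 2878 to 2945 in KO. The median log2 fold change of the neuron markers was -0.54, and -0.026 with the length and GC offset. With that offset the median went from -1.15 to -0.56 for precursors, -0.85 to -0.68 for radial glia and -0.97 to -0.74 for astrocytes. Of 7 tested markers of mature oligodendrocytes 3 were called higher and 3 lower (median 0.32). Of 5 genes listed for interneurons that carry nets 1 was called higher and 2 lower (median -0.14). Endothelial markers, 5 of 5 called lower, summed to 162 to 220 CPM in WT and 44.2 to 57.1 in KO. Erythroid markers, 5 of 6 called higher, summed to 1050 to 1333 CPM in WT and 3542 to 4382 in KO. Their part in the lower Ncan, Bcan, Tnc and Tnr was not tested.

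The make-up of a family within a library does not depend on library scaling, although the length and GC trend can still touch it. It does depend on the exon lengths used: in raw counts Vcan had 4234, 4956 and 5496 in KO day 15, and Ncan 2248, 2360 and 2216. In counts per kilobase of exon, Ncan made up 66.8%, 70.9% and 69.2% of the lectican total in the WT day 15 libraries and 41.6%, 40.1% and 38.8% in KO day 15. The share of Vcan was higher in KO than in WT: 39.0%, 41.9% and 47.9%, against 20.8%, 19.4% and 18.5%. In KO replicate 1 it was still below that of Ncan. The share of Bcan was 10.4 ± 1.53% in WT and 16.9 ± 3.19% in KO (SD, n = 3 per genotype). The fetal genotypes did not overlap for any of these 3 shares. A higher share is not a higher level: in the main fit Vcan and Bcan had log2 fold changes of -0.18 and -0.62. Acan was 2.99% in WT replicate 1 and at most 0.115% in the other fetal libraries. Among tenascins, Tnc made up 83.1% to 87.5% in WT and 79.5% to 81.4% in KO.

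**Figure D2:**
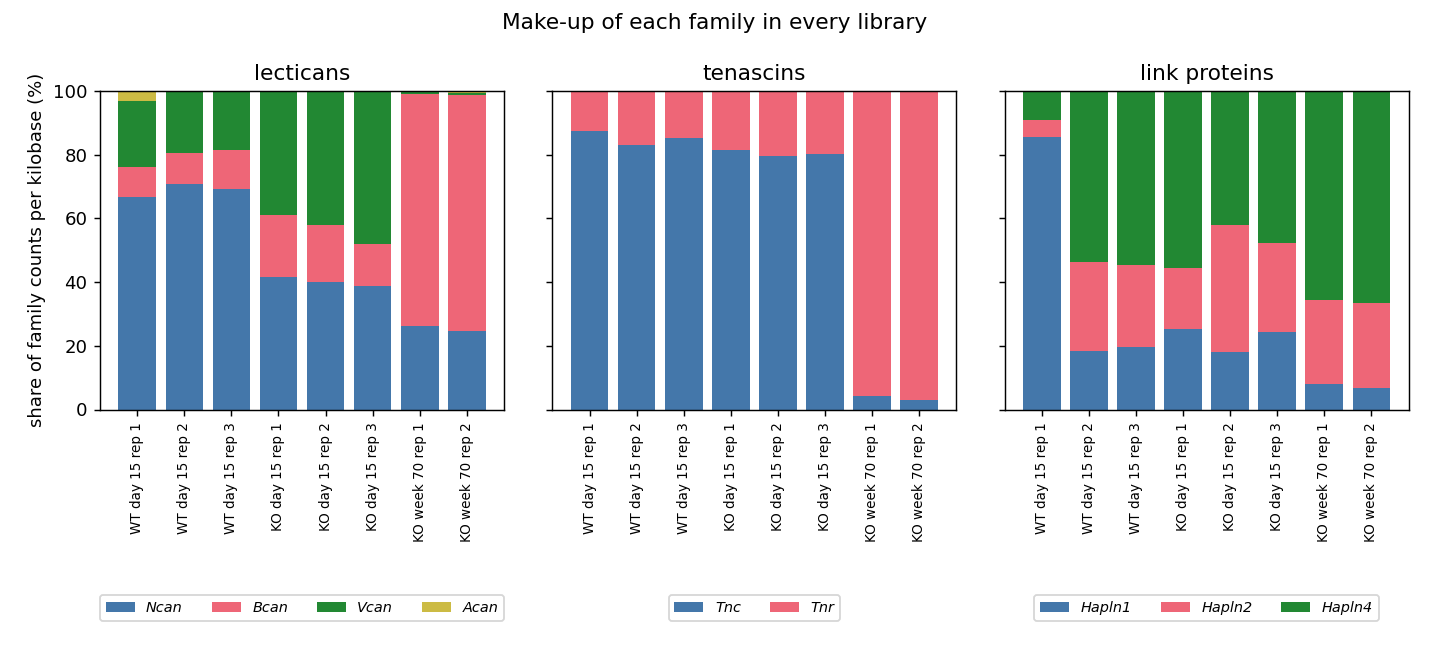
Share of each gene in its family's counts per kilobase of exon (%, stacked bars) in each library. Ncan leads the lecticans in WT day 15 at 69.0 ± 2.03%, Ncan and Vcan are close in KO day 15, and Bcan leads at week 70; Hapln1 takes 85.7% of the link proteins in WT day 15 replicate 1 alone.

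The second comparison followed the matrix genes from the fetal to the aged KO brain. All 9 genes passed the filter and all 9 were called by edgeR, 7 higher and 2 lower at week 70, in a comparison where 82% of all 20000 genes tested were called. By direction, 37.6% of the genes tested were higher and 44.4% lower. No gene of the 9 overlapped between the ages, as held for 87.7% of all genes tested. Any difference in how the libraries of both ages were made is part of this comparison. So is sex: the fetal KO libraries had 66033 to 93272 Xist and at most 2 Y-linked counts. Week 70 replicate 2 had 4 Xist and 2219 Y-linked counts.

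Versican and tenascin C fell furthest. Vcan was at 15.3 and 11.03 CPM at week 70 against 253 to 313 in KO day 15, a log2 fold change of -4.50 (SE 0.17, edgeR adjusted p 2.44e-09), or 22.7-fold lower. Tnc was at 3.09 and 2.88 CPM against 81.5 to 85.7, a log2 fold change of -4.89 (SE 0.122, edgeR adjusted p 1.8e-10), or 29.7-fold lower. With the length and GC offset Vcan was at -3.72 and Tnc at -5.45, both called. No other gene of the 9 was called lower than in fetal KO brain.

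The lectican Bcan rose from 30.9 ± 5.80 (SD, n = 3) to 378 and 372 CPM, a log2 fold change of 3.5 (SE 0.133, edgeR adjusted p 2.53e-09). Tnr was at 117 and 151 CPM at week 70, with a log2 fold change of 1.89 (SE 0.109, edgeR adjusted p 5.76e-08). Ncan was at 241 and 217 CPM, above all KO day 15 libraries by a log2 fold change of 0.72 (SE 0.0867, edgeR adjusted p 2.17e-05). That rise was not seen with the length and GC offset, where it was -0.036 (edgeR adjusted p 0.739). Acan, the main lectican of perineuronal nets, remained low at 34 and 68 counts against 2 to 7, with a log2 fold change of 3.54 (SE 0.528, edgeR adjusted p 0.00011). With the offset Acan was at 2.82 and Bcan at 2.44, both called. With all 8 libraries in 1 fit, Acan was at 3.64 with a wider SE of 1.63 and was not called (edgeR adjusted p 0.0588).

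The link proteins had the largest rises of the set. Hapln4 went from 14 to 19 counts in KO day 15 to 3007 and 3509 at week 70, a log2 fold change of 7.72 (SE 0.157, edgeR adjusted p 8.06e-11), or 211-fold. Hapln2 went from 4 to 8 counts to 735 and 853, a log2 fold change of 7.14 (SE 0.209, edgeR adjusted p 4.37e-10). Hapln1 went from 9 to 13 counts to 555 and 524, with a log2 fold change of 5.63 (SE 0.193, edgeR adjusted p 1.26e-09). With the length and GC offset the log2 fold changes were 6.88 for Hapln4, 6.5 for Hapln2 and 6.40 for Hapln1, all called. Both week 70 libraries were high for all 3 genes, and without the offset 99.8%, 99.6% and 99.0% of all tested genes had a lower log2 fold change than Hapln4, Hapln2 and Hapln1.

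**Figure D3:**
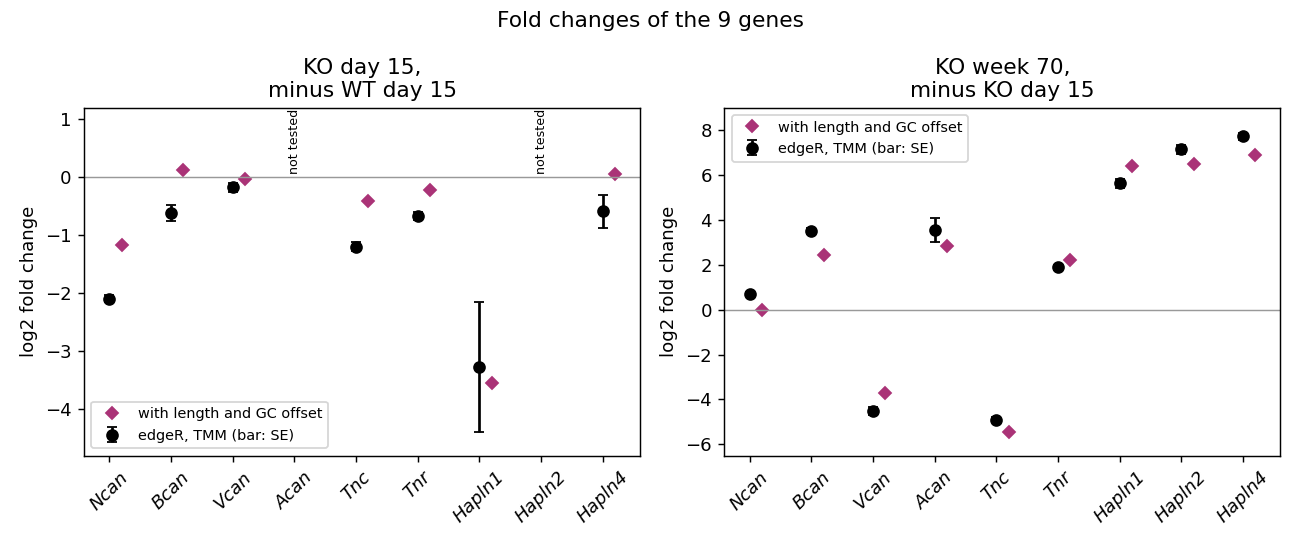
Log2 fold change of each gene with its SE (black) and the value with the length and GC offset (diamonds), for the fetal genotypes (left) and for age within KO (right). Left, Ncan lies at -2.09 and Hapln1 at -3.27 with the widest bar; right, Vcan and Tnc are the genes far below 0 and the 3 link proteins lie between 5.63 and 7.72.

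Markers of the cells that make these genes differed between the ages as well. All 9 markers of mature oligodendrocytes were called higher at week 70, with summed levels of 13408 and 13771 CPM against 84.5 to 88.4 in KO day 15. All 8 astrocyte markers were called higher, at 8512 and 8022 CPM against 246 to 257. So were all 5 genes listed for interneurons that carry nets: Pvalb, Gad1, Gad2, Kcnc1 and Syt2. Gad1 and Gad2 already averaged 125 and 152 CPM in KO day 15, and Pvalb 1.27, so the list is not limited to net-bearing cells. Of the radial glia markers 5 of 6 were called lower. Their part in the changes of the 9 genes was not tested.

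Per kilobase of exon, the order of levels was rearranged between the groups. In WT day 15 it ran Ncan (82.1 CPM per kilobase), Tnc (26.1), Vcan (23.3), Bcan (12.4) and Tnr (4.44), with Tnc and Vcan overlapping. In KO day 15 Vcan (19.4) and Ncan (18.1) overlapped at the top, followed by Tnc (10.7), Bcan (7.60) and Tnr (2.62). The means of the remaining 4 genes in KO day 15 lay between 0.0357 (Acan) and 0.244 (Hapln4) CPM per kilobase. At week 70 the order was Bcan (92.2), Hapln4 (55.3), Ncan (31.8), Hapln2 (22.3), Tnr (10.4), Hapln1 (6.07), Vcan (0.912), Acan (0.459) and Tnc (0.384), and only Acan and Tnc overlapped.

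At week 70 Bcan made up 72.7% and 74.4% of the lectican counts per kilobase and Ncan 26.3% and 24.5%. Vcan was at 0.830% and 0.620%, and Acan at 0.230% and 0.507%. Tnr made up 95.8% and 96.9% of the tenascins. Among link proteins Hapln4 led at 65.5% and 66.6%, Hapln2 was at 26.5% and 26.8%, and Hapln1 at 8.03% and 6.61%.

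The amount of link protein transcript relative to lectican transcript also differed. For every 100 lectican counts per kilobase there were 0.590 and 0.691 link protein counts per kilobase in WT day 15 replicates 2 and 3, and 3.23 in replicate 1. In KO day 15 the values were 1.16, 1.03 and 1.14, and at week 70 they were 59.0 and 74.8. The fetal ratios rest on few link protein counts, at most 19 per gene in KO day 15 and 35 in WT replicates 2 and 3. Mean Ncan, part of the lectican sum, was 591 CPM in WT and 130.3 in KO day 15. No link protein gene was called higher in KO day 15 than in WT. Together the 9 genes took 0.122% to 0.129% of all counts in WT day 15, 0.0644% to 0.0696% in KO day 15 and 0.0794% and 0.0843% at week 70.

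Neighbouring genes had different fold changes with age, which were not tested against each other. Ncan and Hapln4, 2222 bases apart, had log2 fold changes of 0.72 and 7.72 between KO week 70 and KO day 15. Bcan and Hapln2 both rose, by 3.5 and 7.14, and Vcan and Hapln1 went in opposite directions, at -4.50 and 5.63. Acan rose by 3.54, while Hapln3, a link protein made mostly outside the brain, had 29, 27 and 17 counts in KO day 15 and 14 and 15 at week 70, and was not called (log2 fold change -0.63, edgeR adjusted p 0.196). Reads that run past the ends of Acan and Hapln3 could fall on either gene, and the use of strand in counting is not given in the sources used here.

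**Figure D4:**
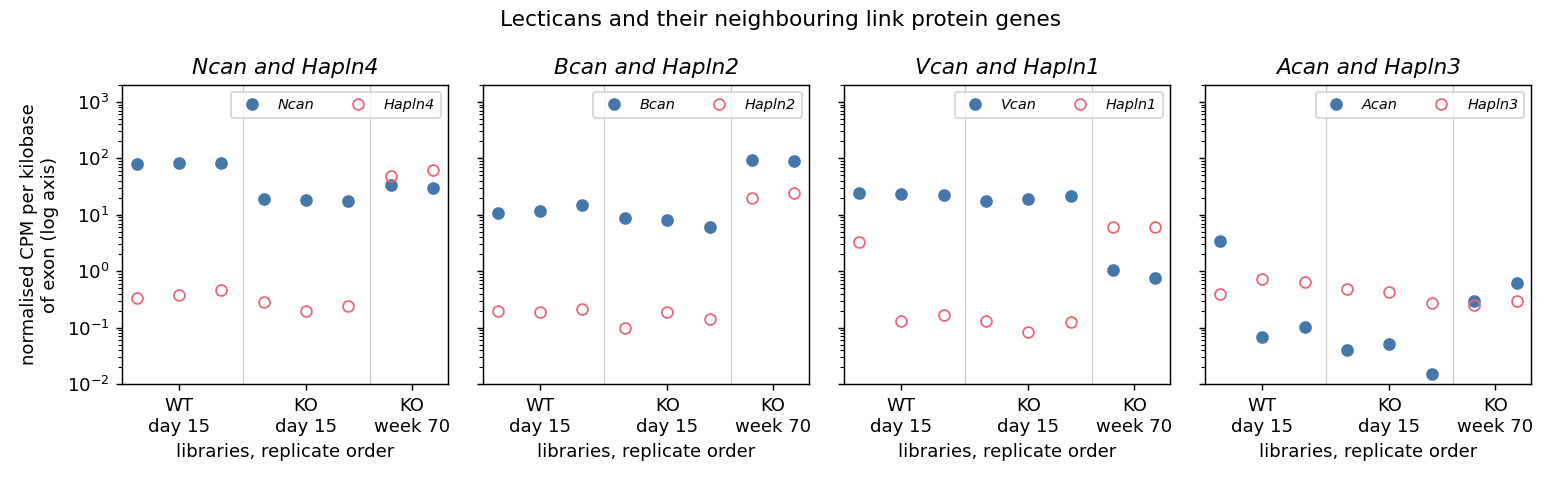
Normalised CPM per kilobase of exon (log axis) of each lectican (filled) and the link protein gene beside it (open) in the 8 libraries, ordered by group and replicate. Each of Hapln4, Hapln2 and Hapln1 is above its day 15 levels at week 70, whereas their lectican neighbours move by 0.72, 3.5 and -4.50 on the log2 scale from KO day 15 and Hapln3 stays low throughout.

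The third pair, KO week 70 against WT day 15, shares its libraries with the other comparisons, and age and genotype cannot be told apart in it. Here edgeR called 7 of the 9, and 78.6% of the 19465 genes tested, 36.7% higher and 41.9% lower. Libraries of both groups did not overlap for 86.5% of the genes tested. Tnc, Vcan and Ncan were lower, with log2 fold changes of -6.05, -4.63 and -1.33, and Hapln4, Hapln2, Bcan and Tnr were higher, at 7.17, 6.79, 2.93 and 1.26. Ncan stood highest in WT day 15, and its order between the KO ages turned on the length and GC offset, as given above. With that offset Vcan was at -3.74 and Tnr at 2.00 in this comparison. Hapln1 (2.39, edgeR adjusted p 0.0753) and Acan (-1.39, edgeR adjusted p 0.418) were not called. Hapln1 was called with the offset (2.85, edgeR adjusted p 0.0334), with all 8 libraries in 1 fit (2.40, edgeR adjusted p 0.0275) and with the replicate block (2.77, edgeR adjusted p 0.0464). Without WT replicate 1 edgeR called all 9, with Hapln1 at 5.39 and Acan at 2.43, the opposite direction for Acan.

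Other genes of the same matrix were taken from lists by role, written with earlier results of these libraries known. At day 15 the median log2 fold change over all genes tested was 0.029, and each list median below is to be read against it. The enzymes that build chondroitin sulphate chains had a median of -0.78, with 13 of 20 tested genes lower in KO and 2 higher. Chst14, a dermatan sulphotransferase, fell by 1.97 on the log2 scale (edgeR adjusted p 0.000608), and Csgalnact2, which starts the chain, rose by 0.71. Chst14 was counted 219, 87 and 107 times in WT day 15 and 37, 29 and 19 times in KO day 15. The groups did not overlap, but the size of its fall rests in part on WT replicate 1. With the length and GC offset 10 of these enzymes were lower and 5 higher (median -0.32).

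Proteases and their inhibitors had a median of -1.26, with 10 of 13 lower and 1 higher. With the length and GC offset 9 were lower and 2 higher (median -0.84), and without WT replicate 1 the median was -1.05. Mmp9, a gelatinase, fell by 3.21 (edgeR adjusted p 2.69e-08), and Timp4, an inhibitor of metalloproteinases, rose by 0.75. Adamts4, which cleaves lecticans, was lower as well, with a log2 fold change of -1.72. Of the receptors and ligands of the matrix 14 of 17 were lower, and the median was -0.81. With the offset 11 were lower and 1 higher (median -0.56). Sema3a, the 1 gene of the list above 0, was at 0.12 (edgeR adjusted p 0.189). Rtn4rl2, a relative of the Nogo receptor, fell by 2.22 (edgeR adjusted p 5.26e-08).

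Genes of hyaluronan synthesis and turnover had a median of -0.45, with 4 of 10 lower and 2 higher, near the 32.5% and 30.1% of all genes. The median was -0.14 with the length and GC offset and -0.28 with upper-quartile scaling. Has2, a hyaluronan synthase, rose by 0.59, and Cemip, which takes part in hyaluronan breakdown, fell by 1.45. Of the 6 hyaluronan receptors 2 were lower and 1 higher, with a median of -0.22. Stab1, a scavenger receptor, fell by 1.49, and Hmmr, which also serves the mitotic spindle, rose by 0.36.

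With age within KO the median over all genes tested was -0.19, with 37.6% of them called higher and 44.4% lower. Of 20 chondroitin sulphate enzymes 13 were higher and 1 lower (median 0.95). With the length and GC offset 11 were higher and 4 lower (median 0.44), and with upper-quartile scaling 12 and 4 (median 0.70). Chpf, a chain polymerising factor, rose by 3.0, and Dsel, an epimerase relative, fell by 0.59. Hyaluronan synthesis and turnover went the other way, with 7 of 10 lower and 2 higher (median -1.26). Has2 fell by 3.65, and Has1 and Has3, the other hyaluronan synthases, are added after their values were seen: Has1 fell by 1.69 and Has3 fell by 2.69. Tnfaip6, which transfers proteins onto hyaluronan, rose by 3.17.

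Receptors and ligands had 11 of 17 higher and 4 lower at week 70 (median 1.03). Rtn4r, the Nogo receptor, rose by 4.01, and Ptprs, a receptor for chondroitin sulphate, fell by 1.00. Proteases and inhibitors had 6 of 13 higher and 4 lower, with a median of 0.57 that was -0.24 with the length and GC offset. Adamts4 rose by 3.62 and Adamts5, also able to cleave lecticans, fell by 1.51. Among the hyaluronan receptors 1 of 6 was higher, Layn at 2.36, and 2 were lower, of which Hmmr fell by 4.74. The median of these receptors was -0.27, and -0.91 with the offset.

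**Figure D5:**
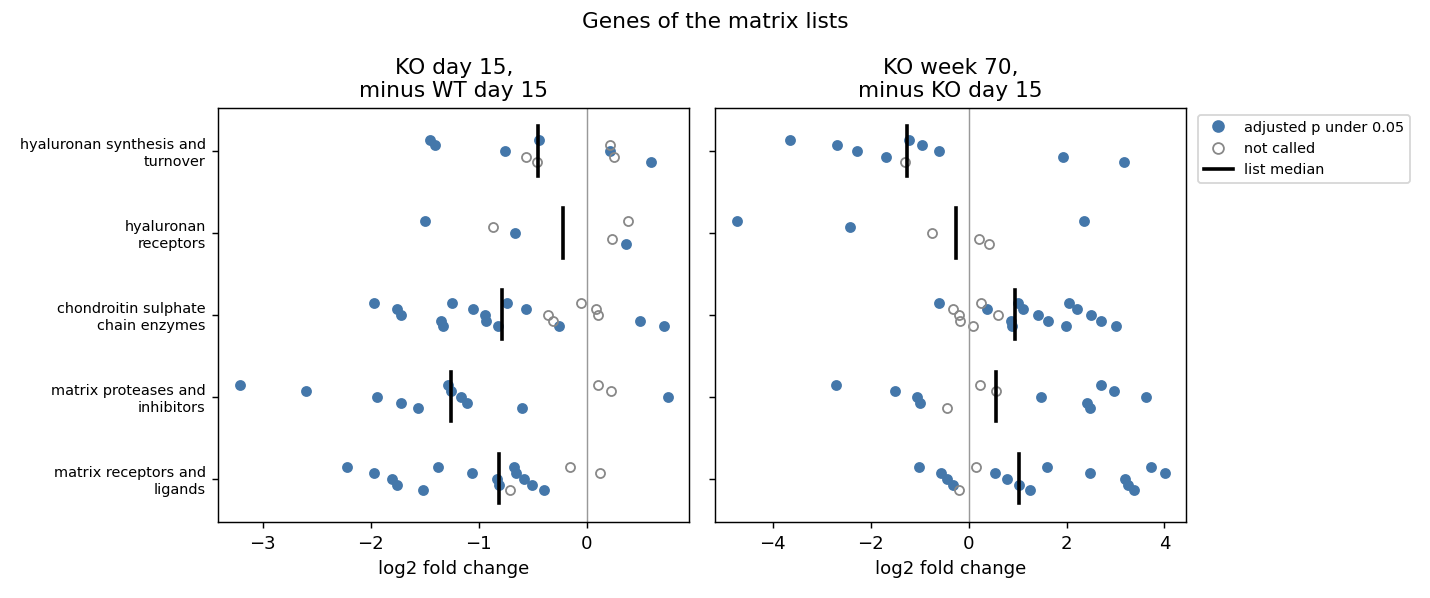
Log2 fold change of each tested gene of 5 matrix lists, for the fetal genotypes (left) and for age within KO (right), with called genes filled and the list median as a bar. Left, the medians lie between -1.26 and -0.22; right, hyaluronan synthesis and turnover lies at -1.26 and chondroitin sulphate enzymes at 0.95.

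Genes outside the set with the most similar profile over the 8 libraries were found by the root mean square difference of centred log2 levels, among 12779 genes. The likeness is a description, since all libraries share the same 3 groups. Tnr was nearest to Rtn3 (0.0817), Zer1 (0.0908) and Syt7 (0.0931), and Bcan to Grin1 (0.102), Prkar1b (0.108) and Syngr1 (0.119). Ncan was nearest to Ina (0.129), Nova2 (0.136) and Bcl9l (0.139). Vcan was nearest to Ccna2 (0.0975), Bub1 (0.154) and Kif15 (0.161), genes of cell division, and Tnc to Neurog2 (0.152), Dpysl3 (0.164) and Adamts7 (0.192). Hapln4 was nearest to Tuba4a (0.136), and Hapln2 to Abhd3 (0.155). Acan and Hapln1, each high in WT replicate 1, had Thbs2 (0.451) and Tmem119 (0.389) as their nearest, at a larger distance than for the other 7.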

How the data were processed

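RNA-seq of whole brain was deposited as 1 table of raw read counts per gene for 8 libraries. Per the submitters' processing notes the authors used FastQC, cutadapt, Trimmomatic, HISAT2, featureCounts and edgeR, and the notes name both GRCm38 and GRCm39, with no role for either. The annotation and the handling of strand and multi-mapping reads are not given in the sources used here. Poly-A RNA was selected per the labels' protocols.

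Of 34299 gene IDs, 97.28% matched GENCODE M 21, which gave positions, exon lengths and GC content. Each pair of groups was fitted with edgeR 4.0.16 (R 4.3.3) in its quasi-likelihood test, after filterByExpr and TMM scaling, and a gene was called at a Benjamini-Hochberg adjusted p under 0.05 over all genes tested. SE is the log2 fold change over the root of F. CPM were scaled by TMM over all 8 libraries. The fit was also run on simulated counts with few changed genes, no length or GC trend and no outlying library. Those features of the real data were therefore not covered by that run. P-values test a difference between groups against the spread among libraries, 2 or 3 per group, with information shared across genes.

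The members and lists were chosen with earlier results of these data known. Named genes were the 9 members, Hapln3, the called gene with the largest rise and fall in each list at a mean of at least 50 counts, and the 3 nearest profiles (pseudocount 1). Alternatives were DESeq2 1.42.0, other scalings and filters, 1 fit of all 8 libraries, a replicate block, a length and GC offset (mgcv 1.9.3), and leaving out each library. Leaving out WT day 15 replicate 1 from the lists was chosen after seeing the data.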

Additional observations from a re-analysis of the deposited data

How the results depend on the processing

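The counts of called genes and of called members stayed within 1.5 times their main value in every alternative run. Like counts do not mean that the same genes were called. Of the 9734 genes called between the fetal genotypes with the length and GC offset, 7603 were among the 11993 main calls. Between the fetal genotypes DESeq2 called 10744 genes and 5 members, and the length and GC offset 9734 and 4. With no filter on low counts 7 members were called, and leaving out 1 library gave 4 to 6. Of the 5 members of DESeq2, 4 were among the 5 main calls. DESeq2 called Vcan in addition and gave Hapln1 no adjusted p. Leaving out any 1 of the KO day 15 libraries gave 5 called members, of which 4 were main calls. Under upper-quartile scaling the median of all genes was 0.20 in place of 0.029 on the log2 scale, and 60.8% of the calls were higher in place of 48.1%. For age within KO that median was -0.44 in place of -0.19.

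With the length and GC offset, and with the replicate block added to it, Bcan was at 0.13 and 0.14 and Hapln4 at 0.057 and 0.060 between the fetal genotypes, and Ncan was at -0.036 and -0.025 for age within KO. The offset alone turned the sign of 6 list medians. For matrix lists these were relatives outside the 9 genes at 0.057 between genotypes and -0.017 for age within KO. Of these relatives only Hapln3 and Tnxb were tested in both comparisons, since Tnn did not pass the filter. Proteases were at -0.24 for age within KO, and receptors and ligands at 0.50 for KO week 70 against WT day 15. For marker lists they were those of net-bearing interneurons between genotypes (-0.14 to 0.17) and of meninges and fibroblasts for age within KO (0.57 to -0.028). For KO week 70 against WT day 15 Acan was at 2.43 without WT replicate 1, and between that value and -2.01 over the libraries left out in turn. The cause was not tested.

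Vcan was called lower between the fetal genotypes with no filter (-0.27), with DESeq2 (-0.23) and without KO replicate 3 (-0.27), and Hapln4 with all 8 libraries in 1 fit (-0.63). Same-numbered WT and KO day 15 libraries had correlations of -0.14, -0.17 and -0.15 in their deviations from the group means, so the numbers were not taken to pair the samples. With the replicate block edgeR called 11184, 14876 and 13244 genes and 5, 9 and 8 members in the 3 comparisons. Depth limits Hapln2, Hapln4, Acan and Hapln1 in the fetal libraries, where most had under 40 counts. Group means of the family shares were also taken from raw counts and with each library left out. Of these checks 79 stayed within the SD of the main mean and 20 did not.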

Other observations

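Lists for KO week 70 against WT day 15, in which age and genotype cannot be told apart, were not described above. Here the median log2 fold change over all genes tested was -0.16, with 36.7% of them called higher and 41.9% lower. The list counts below are to be read against these shares. Of 10 genes of hyaluronan synthesis and turnover 7 were lower and 2 higher (median -1.38): Cemip2, a hyaluronidase of the cell surface, fell by 3.63 and Tnfaip6 rose by 2.75. Of 20 chondroitin sulphate enzymes 11 were higher and 3 lower (median 0.34), with Csgalnact1 at 2.5 and Chsy1, a chain synthase, at -1.48. Of 13 proteases and inhibitors 7 were lower and 5 higher, with the inhibitor Timp4 at 3.51 and the gelatinase Mmp2 at -3.62. Mmp2 was at 51.1 CPM in WT replicate 1, at 13.0 and 18.0 CPM in WT replicates 2 and 3, and at 1.74 and 2.60 CPM at week 70, so its fold rests in part on that library. Of 17 receptors and ligands 7 were higher and 5 lower, with Rtn4rl1 at 2.71 and Ptprf at -1.94.

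Relatives of the 9 genes were near their low end in most libraries. Tnxb, tenascin X of connective tissue, was counted 84, 44 and 66 times in WT day 15. In KO it was counted 26, 39 and 21 times in the fetal brains, against 60 and 118 times in the aged ones. Its log2 fold change was -0.88 between the fetal genotypes (edgeR adjusted p 0.0207), a call lost with the length and GC offset and with upper-quartile scaling, and 1.76 for age within KO (edgeR adjusted p 0.0012). Hapln3 had 29, 51 and 45 counts in WT day 15 and was not called between the fetal genotypes (-0.50, edgeR adjusted p 0.19). Parts of Tnc and Tnr exons overlap annotated genes on the opposite strand, 8030451A03Rik and Gm38039, over 176 and 443 bases, and without strand information their reads cannot be told apart.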
